A study of Homo sapiens with 6 samples.

Results

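The proteasome subunit genes were read out by RNA-seq in mitotic ERRAS cells, with and without activated Ras. They were taken as every row of the expression table whose symbol has the form PSM, a letter from A to G, and a number. This found 64 rows under 48 symbols, and 48 rows (46 symbols) had a mean of at least 1 FPKM (fragments mapped to a transcript, scaled to its length and to the number of mapped fragments in the library) over the 6 libraries. They are 48 of the 13993 rows at or above that level, out of 63009 rows with 1 value per library. Of the other 16 rows, 7 rows of PSMB8 and 7 rows of PSMB9 under further Ensembl identifiers were listed at 0 in all 6 libraries. PSMA8, a testis-type alpha subunit, was also listed at 0 in all 6 libraries, and PSMB11, the thymus-specific catalytic subunit, reached 0.0319 FPKM in 1 Ras-induced library and was listed at 0 in the others.

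ERRAS cells are IMR90 cells, a strain of normal human lung fibroblasts, that stably carry H-RasV12 fused to an estrogen receptor domain, which 4-hydroxytamoxifen activates, and were cultured in G418 at low oxygen. Control mitotic cells (3 libraries) were uninduced, and Ras-induced mitotic cells (3 libraries) had been induced for 4 days. The labels give the inducer as 100 nM tamoxifen, whereas the study's methods give 4-hydroxytamoxifen at another dose, so the dose is uncertain. Both groups were arrested in mitosis with 1 µM dimethylenastron (DME), an inhibitor of the kinesin Eg5, and unattached mitotic cells were collected, so every library comes from drug-arrested mitosis of a single fibroblast strain. No library of Ras-induced cells outside mitosis was analysed here.

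The 26S proteasome degrades proteins that carry ubiquitin chains. Its 20S core is a barrel of stacked rings, with alpha subunits (PSMA) that gate the entrance and beta subunits (PSMB) that hold the cleaving sites. The 19S regulatory particle has a base, with a ring of ATPases (PSMC) that unfolds substrates, and a lid that includes the deubiquitinase PSMD14. In immune cells and under interferon, PSMB8, PSMB9 and PSMB10 replace the catalytic subunits PSMB5, PSMB6 and PSMB7 and form the immunoproteasome, which favours peptides for class I antigen presentation. Dedicated chaperones (PSMG1 to PSMG4, PSMD5, PSMD9, PSMD10) assemble the particle, and NFE2L1 is the transcription factor best known for raising proteasome genes when the proteasome is impaired.

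Upstream sequence is shown for 5 genes, some of those that rose below and those in which the same letters were found. The windows are from RefSeq on GRCh38.p14 and hold the 250 bases before the gene start, 5′ to 3′ on the gene's strand. Capitals mark matches on either strand to TGACNNNGC (the core of the antioxidant response element that NFE2L1 and NFE2L2 bind with small MAF proteins), GAAANNGAA (the core of the interferon-stimulated response element) or CCAAT. PSMG4, the core chaperone with the largest difference between the groups, is at chr6:3258697-3258946 on the plus strand. PSMB10 (chr16:67936851-67937100, minus strand) and PSME2 (chr14:24146611-24146860, minus strand) belong to the interferon-inducible part of the proteasome. PSMA3 (chr14:58244593-58244842, plus strand) is the core subunit that rose, and PSMD12 (chr17:67366578-67366827, minus strand) is 1 of the 5 lid subunits that rose.
PSMG4: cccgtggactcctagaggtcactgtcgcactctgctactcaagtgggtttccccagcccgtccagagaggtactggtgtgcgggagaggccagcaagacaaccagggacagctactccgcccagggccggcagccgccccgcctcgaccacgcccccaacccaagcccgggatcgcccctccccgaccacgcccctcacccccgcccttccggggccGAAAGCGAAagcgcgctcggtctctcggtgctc
PSMB10: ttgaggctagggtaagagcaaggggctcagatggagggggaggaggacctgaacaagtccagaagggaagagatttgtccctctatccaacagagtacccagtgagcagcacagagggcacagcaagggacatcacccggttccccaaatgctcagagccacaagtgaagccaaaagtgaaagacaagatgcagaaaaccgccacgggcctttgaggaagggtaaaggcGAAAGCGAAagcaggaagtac
PSME2: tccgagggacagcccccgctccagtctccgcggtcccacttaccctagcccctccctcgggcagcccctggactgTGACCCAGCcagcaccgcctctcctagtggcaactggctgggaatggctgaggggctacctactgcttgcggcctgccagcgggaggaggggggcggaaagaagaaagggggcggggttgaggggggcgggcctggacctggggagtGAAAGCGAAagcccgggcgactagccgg
PSMA3: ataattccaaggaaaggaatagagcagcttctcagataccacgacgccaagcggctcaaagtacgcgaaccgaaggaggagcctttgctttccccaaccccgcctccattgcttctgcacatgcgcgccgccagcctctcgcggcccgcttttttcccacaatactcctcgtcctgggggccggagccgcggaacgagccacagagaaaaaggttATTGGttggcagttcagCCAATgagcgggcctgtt
PSMD12: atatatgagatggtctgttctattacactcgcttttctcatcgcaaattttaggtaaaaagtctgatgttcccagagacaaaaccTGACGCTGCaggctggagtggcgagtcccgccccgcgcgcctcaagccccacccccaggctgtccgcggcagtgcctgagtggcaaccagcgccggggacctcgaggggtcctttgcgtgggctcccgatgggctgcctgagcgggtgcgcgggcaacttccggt

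PSMG4, PSMB10 and PSME2 held the same 9 letters, GAAAGCGAA, at 33, 21 and 28 bases before the start, and this shared match was picked out after the windows had been read. PSME2 also held an antioxidant element core at 175 bases before the start. PSMA3 held CCAAT at 35 and 18 bases before the start, on opposite strands, and PSMD12 held the antioxidant element core at 165 bases before the start. This core was absent from the windows of PSMD7, PSMD8, PSMD11 and PSMD14, the other lid subunits that rose. PSMD7, PSMD8 and PSMD14 held CCAAT, and PSMD11 held none of the motifs. RefSeq windows of 300 bases (250 before and 50 after the start) matched 40 of the 46 symbols, through 49 windows, and were not matched for PSMA7, PSMB1, PSMB6, PSMB7, PSMD4 and PSMG3. The antioxidant element core was in 15 of the 49 windows (30.6%) and in 13.3% of 35116 windows of all genes. The interferon element core was in 8 of 49 (16.3%, against 8.11% of all) and CCAAT in 19 of 49 (38.8%, against 34.6%). No motif overlapped another in the 5 windows shown. A match of letters is a description of the window only.

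Next, the proteasome genes as a whole were compared between Ras-induced and control mitotic cells. Most were slightly higher after Ras induction, but few of these differences passed the test. The log2 fold change (from limma, on log2(FPKM + 1)) was above 0 for 47 of the 48 rows (97.9%), against 62.7% of all tested genes, and its median was 0.22 against 0.10 over all tested genes. No row differed by more than a log2 fold change of 1 in either direction, and the median fold of mean FPKM was 1.17. At a Benjamini-Hochberg adjusted p of 0.05 over all tested genes, 8 of the 48 rows (16.7%) rose, beside 11.0% of all tested genes, and 0 fell, beside 5.67%. At an unadjusted p under 0.05, 24 of 48 rows were higher, beside 22.9% of all tested genes, and 0 were lower, beside 10.7%. All 3 Ras-induced libraries lay above all 3 control libraries for 33 rows (68.8%), beside 27.1% of all tested genes, the groups overlapped for 15 rows, and no row was separated downwards, beside 12.8%. The median level was 104 FPKM for the 48 rows and 13.0 FPKM for all tested genes. The shares of all tested genes given here and below were not matched for level.

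How many rows passed depended on single libraries and on scaling, and in 6 of the 13 alternative settings the share of proteasome rows called was below that of all tested genes. Without control library 1, control library 2 or Ras-induced library 3, 1 row passed each time (PSMG4, 2.08% of the 48), beside 4.47%, 3.87% and 3.71% of all tested genes. Without control library 3, 5 passed (10.4%, beside 8.3%). Without Ras-induced library 1 or 2, 3 passed (6.25%, beside 4.54% and 6.57%). As deposited, 1543 of all tested genes were called higher and 793 lower. With quantile normalization the split was 1044 higher and 1109 lower, the median of all genes was 0.01, the proteasome median was 0.16 and 6 rows passed (12.5%, beside 7.46%). These were the core subunits PSMA3, PSMA5, PSMB1 and PSMB5, the chaperone PSMG4 and, of the lid, PSMD8 alone. With upper-quartile scaling the split was 916 higher and 1110 lower, the proteasome median was 0.11 and 2 rows passed (PSMA3 and PSMG4, 4.17%, beside 6.55%). Without the mean-variance trend in limma, 2 rows passed (4.17%, beside 9.29%).

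**Figure D1:**
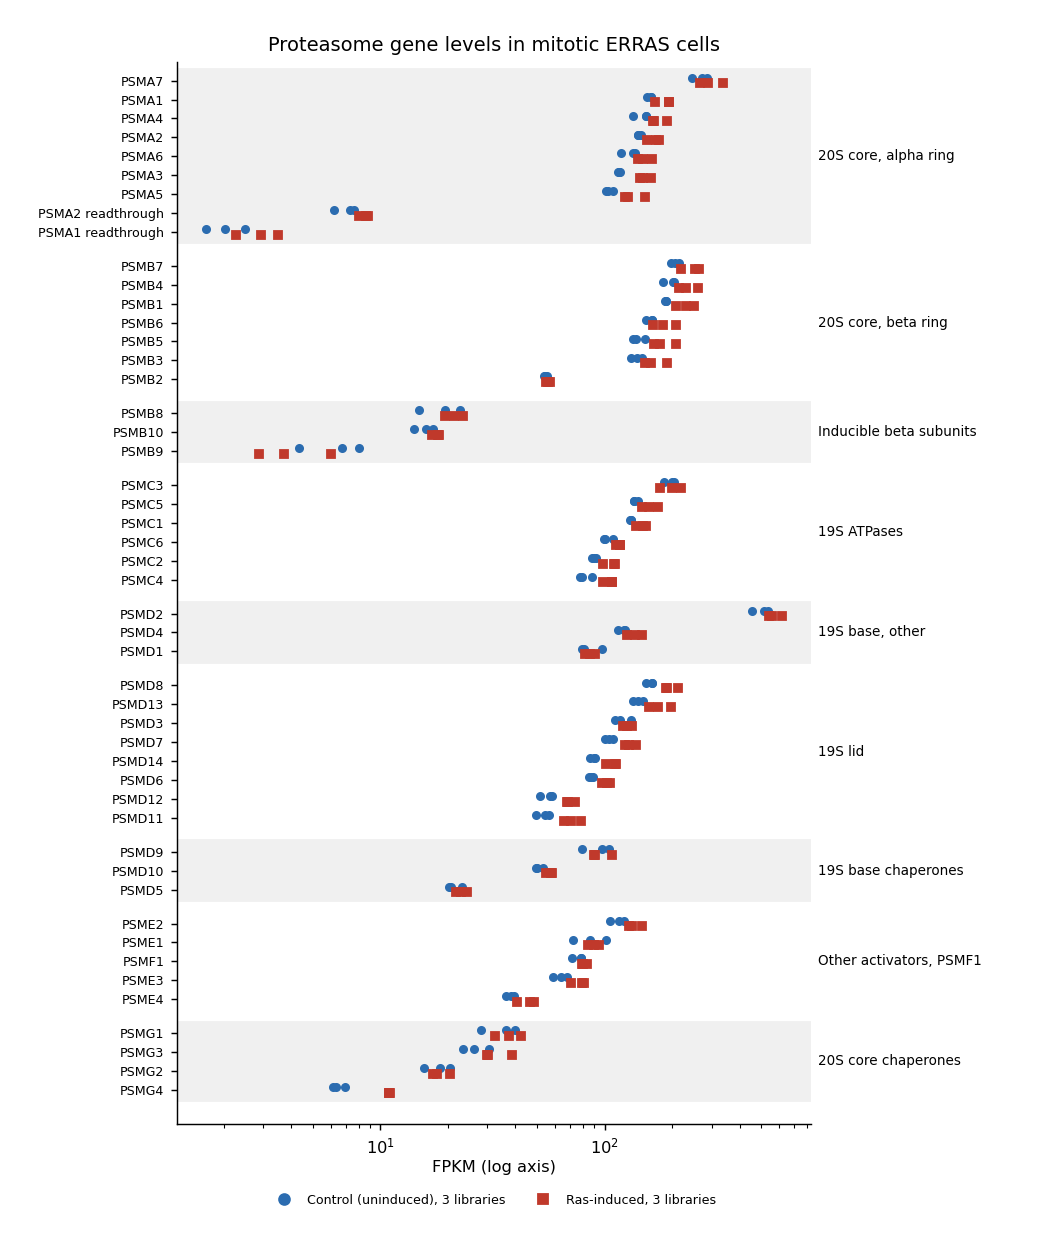
FPKM (log axis) of each of the 48 proteasome rows, 1 point per library, with control mitotic cells as circles and Ras-induced mitotic cells as squares, grouped by subcomplex. Squares lie to the right of all circles for 33 rows, and the inducible beta subunits and the core chaperones lie below 50 FPKM.

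The libraries moved together over these genes. The median deviation of the 48 rows from their own means, on the log2 scale, was -0.10, -0.08 and -0.15 in control libraries 1 to 3 and 0.04, 0.19 and 0.10 in Ras-induced libraries 1 to 3. For all tested genes it was -0.04, -0.03 and -0.09, then 0.06, 0.03 and 0.04. Ras-induced library 2 thus stood highest for the proteasome genes but not for all genes, and it held the highest value of 30 of the 48 rows. Control library 3 held the lowest value of 24 rows. Without Ras-induced library 2 the proteasome median was 0.18 and that of all genes was 0.11.

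The 14 constitutive subunits of the 20S core were among the more abundant genes, with a summed level of 2174, 2212 and 2066 FPKM in the control libraries and 2339, 2810 and 2534 FPKM in the Ras-induced libraries, a fold of 1.19 that left a gap between the groups. PSMA7, an alpha subunit, was the highest core gene in all 6 libraries (mean 283 FPKM) and PSMB2, a constitutive beta subunit without a catalytic site, was the lowest in all 6 libraries (mean 55.2 FPKM). Their means differed 5.12-fold, although each subunit is present in equal number in the particle. PSMB2 was also nearly level between the groups, at 53.7, 55.6 and 54.2 FPKM in control and 54.9, 57.0 and 55.7 FPKM in Ras-induced cells. Its log2 fold change was 0.04 (SE 0.07, limma adjusted p = 0.74), with a 95% interval from -0.12 to 0.19, and it was below 0 under quantile normalization (-0.06) and upper-quartile scaling (-0.08).

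In the alpha ring, 1 of 7 genes rose (PSMA3, 14.3%, close to the 11.0% of all tested genes), 6 of 7 were separated upwards (85.7%, beside 27.1%), and the median log2 fold change was 0.22. PSMA3 was at 116, 117 and 115 FPKM in control cells and at 144, 162 and 148 FPKM after Ras induction. The control libraries were nearly identical and every Ras-induced library lay well above them, giving a log2 fold change of 0.38 (SE 0.07, limma adjusted p = 0.0176). PSMA3 passed in 10 of 13 alternative settings, with adjusted p from 0.0138 to 0.0604, and did not pass without control library 1, control library 2 or Ras-induced library 3. PSMA5, another alpha subunit, was at 101, 109 and 104 FPKM and then at 124, 152 and 128 FPKM, with no overlap but an adjusted p of 0.0516 in limma (log2 fold change 0.35, SE 0.10). It passed in 4 of 13 alternative settings (limma adjusted p from 0.0432 to 0.14). PSMA7 had overlapping groups, at 272, 286 and 246 FPKM in control and 267, 337 and 289 FPKM in Ras-induced cells (log2 fold change 0.15, SE 0.11, limma adjusted p = 0.397).

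In the beta ring, 0 of 7 constitutive genes passed (beside 11.0% of all tested genes called higher), 6 of 7 were separated upwards (85.7%, beside 27.1%), and the median log2 fold change was 0.26. By unadjusted p, 5 of the 7 were higher at under 0.05, beside 22.9% of all tested genes. PSMB5, the chymotrypsin-like catalytic subunit, was at 134, 152 and 138 FPKM in control cells and at 166, 209 and 176 FPKM in Ras-induced cells (log2 fold change 0.37, SE 0.11, limma adjusted p = 0.0595). PSMB1, a structural beta subunit, was at 188, 186 and 188 FPKM and then at 207, 249 and 232 FPKM (log2 fold change 0.29, SE 0.09, limma adjusted p = 0.0645). Over the 13 alternative settings, PSMB5 passed in 3 (limma adjusted p from 0.0345 to 0.162) and PSMB1 in 2 (0.0482 to 0.22). For both genes the lowest Ras-induced library was library 1 and the highest was library 2. The caspase-like PSMB6 was at 162, 163 and 152 FPKM and then at 164, 208 and 182 FPKM (log2 fold change 0.21, SE 0.10, limma adjusted p = 0.199), so that Ras-induced library 1 barely exceeded the control libraries. The trypsin-like PSMB7, the most abundant gene of the ring, was at 215, 198 and 207 FPKM and then at 219, 264 and 252 FPKM (log2 fold change 0.24, SE 0.09, limma adjusted p = 0.118).

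The PSMA1 and PSMA2 symbols each have another row, for transcripts that read through from a neighbouring gene. They were at a mean of 2.48 FPKM for PSMA1 and 7.78 FPKM for PSMA2, against 172 and 155 FPKM for the main rows, and share exons with them, so reads cannot be split cleanly between the rows. Neither passed the test.

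The inducible beta subunits were next compared with their constitutive partners. They were far less abundant. Of the 3 genes, 0 passed (beside 11.0% of all tested genes called higher and 5.67% called lower), 0 were separated (beside 27.1% upwards and 12.8% downwards) and 2 had a log2 fold change above 0 (beside 62.7%), counts too small to set the group apart from all genes or from the core. PSMB8, the inducible counterpart of PSMB5, was at 19.3, 14.8 and 22.6 FPKM in control cells and at 23.5, 19.4 and 21.2 FPKM in Ras-induced cells (log2 fold change 0.18, SE 0.16, limma adjusted p = 0.458). PSMB10, the counterpart of PSMB7, was at 14.2, 16.0 and 17.1 FPKM and then at 18.2, 18.1 and 17.05 FPKM (log2 fold change 0.17, SE 0.09, limma adjusted p = 0.262). Both sets of libraries overlapped.

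PSMB9, the counterpart of PSMB6, was the only proteasome row with a negative log2 fold change in the deposited scaling. It was at 6.73, 4.32 and 8.002 FPKM in control cells and at 5.99, 2.88 and 3.73 FPKM in Ras-induced cells. The groups overlapped, since control library 2 was below Ras-induced library 1, and the log2 fold change of -0.51 (SE 0.28, 95% interval from -1.17 to 0.15) did not pass in limma (adjusted p = 0.25). It stayed below 0 in all 13 alternative settings, between -0.75 and -0.32. PSMB8 and PSMB9 are neighbours in the MHC on chromosome 6 and share 139 exon bases on opposite strands in the annotation, and the library kit does not mark strand.

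As a share of the partner's level, PSMB8 was at 13.5 ± 3.4% of PSMB5 in control and 11.8 ± 2.44% in Ras-induced cells (SD, n = 3; two-sided exact permutation p = 0.5, adjusted over the 3 pairs 0.75). PSMB9 was at 4.02 ± 1.3% and 2.36 ± 1.16% of PSMB6 (exact permutation p = 0.2, adjusted 0.6), a difference in log2 ratio of -0.72. PSMB10 was at 7.64 ± 0.899% and 7.31 ± 0.866% of PSMB7 (exact permutation p = 1.0, adjusted 1.0). The libraries overlapped in each of the 3 ratios. An exact test of 3 against 3 libraries cannot give a p under 0.1, so these tests could not have passed and do not show that the ratios were alike. The sum of the inducible subunits was 8.10 ± 1.38% of the sum of PSMB5, PSMB6 and PSMB7 in control cells and 7.16 ± 1.39% in Ras-induced cells.

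**Figure D2:**
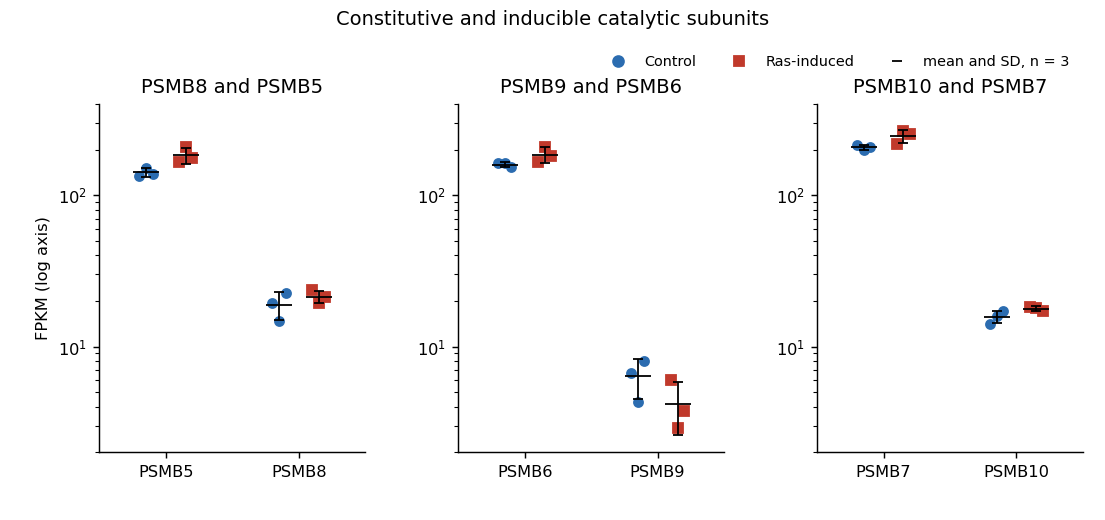
FPKM (log axis) of the constitutive catalytic subunits and their inducible counterparts, 1 point per library, with the mean and SD of 3 libraries as lines. PSMB5, PSMB6 and PSMB7 lie above 100 FPKM and separate between the groups, whereas PSMB8, PSMB9 and PSMB10 lie below 30 FPKM and overlap.

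The 17 subunits of the 19S regulatory particle had a summed level of 2242, 2312 and 2211 FPKM in control cells and 2464, 2756 and 2604 FPKM in Ras-induced cells, a fold of 1.16. The ratio of the core sum to this sum was 0.954 ± 0.018 (SD, n = 3) in control and 0.981 ± 0.036 in Ras-induced cells, and these values overlapped. Of the 17 genes, 6 rose (35.3%, beside 11.0% of all tested genes) and 14 were separated upwards (82.4%, beside 27.1%). PSMD2, a large scaffold subunit of the base, was at a mean of 538 FPKM, 2.73 times the next gene, the ATPase PSMC3 at 196.9 FPKM. PSMD2 was separated between the groups, at 516, 536 and 454 FPKM in control and 541, 621 and 559.6 FPKM in Ras-induced cells, but its log2 fold change of 0.19 (SE 0.10) did not pass in limma (adjusted p = 0.212).

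Among the lid subunits, 5 of 8 rose (62.5%, beside 11.0% of all tested genes) and 7 of 8 were separated upwards (87.5%, beside 27.1%), with a median log2 fold change of 0.30. PSMD11, a lid subunit linked to assembly of the 26S particle, was at 54.3, 49.6 and 56.4 FPKM in control cells and at 78.3, 65.6 and 70.9 FPKM in Ras-induced cells (log2 fold change 0.41, SE 0.09, limma adjusted p = 0.0309). PSMD12, a scaffold subunit of the lid, was at 58.2, 57.0 and 51.7 FPKM and then at 68.7, 68.3 and 73.7 FPKM (log2 fold change 0.33, SE 0.08, limma adjusted p = 0.0354). Both genes had no overlap between the groups, and both had their lowest Ras-induced value in library 2.

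PSMD7, the inactive partner of the deubiquitinase, was at 100, 109 and 105 FPKM in control cells and at 128, 138 and 124 FPKM in Ras-induced cells (log2 fold change 0.31, SE 0.08, limma adjusted p = 0.0389). PSMD14, the deubiquitinase that removes ubiquitin chains from substrates, was at 90.9, 90.0 and 85.8 FPKM and then at 101, 112 and 112 FPKM (log2 fold change 0.28, SE 0.07, limma adjusted p = 0.0483). PSMD8, a further lid subunit, was at 163, 162 and 153 FPKM and then at 188, 213 and 189 FPKM (log2 fold change 0.30, SE 0.08, limma adjusted p = 0.0475). In each of these 3 genes the lowest Ras-induced library exceeded the highest control library. An antisense long noncoding RNA at 51.1 FPKM shares 31.2% of the PSMD7 exon bases in the annotation, and reads of the pair cannot be told apart without strand.

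The lid calls sat near the threshold. Over the 13 alternative settings, PSMD11 passed in 5 (adjusted p from 0.0238 to 0.0959), PSMD12 in 3 (0.032 to 0.109), PSMD7 in 3 (0.0363 to 0.135), PSMD8 in 3 (0.0322 to 0.134) and PSMD14 in 1 (0.0466 to 0.161), all with the same direction. PSMD6 (log2 fold change 0.23, limma adjusted p = 0.0652) and PSMD13 (0.32, adjusted p = 0.0764) were separated but did not pass. PSMD3 overlapped, with 111 to 131 FPKM in control and 121 to 132 FPKM in Ras-induced cells.

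Among the 6 ATPases of the base, 1 rose (16.7%, beside 11.0% of all tested genes) and 5 were separated upwards (83.3%, beside 27.1%). PSMC4 was at 79.2, 77.5 and 87.7 FPKM in control cells and at 98.1, 108 and 108 FPKM in Ras-induced cells (log2 fold change 0.36, SE 0.08, limma adjusted p = 0.032). It passed in 4 of 13 alternative settings (adjusted p from 0.0268 to 0.122). PSMC3 was nearly level, at 199, 203 and 184 FPKM and then at 176, 219 and 199 FPKM (log2 fold change 0.02, SE 0.10, limma adjusted p = 0.932), and its sign turned with either scaling alternative. The ATPases of 1 ring therefore ranged from a log2 fold change of 0.02 to 0.36. PSMC1 shares 76.1% of its exon bases with NRDE2 on the other strand, although NRDE2 was at only 2.18 FPKM. Rows named as pseudogenes of PSMC1 were also listed, PSMC1P1 at a mean of 22.5 FPKM and PSMC1P5 at 9.67 FPKM. The level of PSMC1 is uncertain by any reads it shares with them, and such sharing was not measured. Of 27 rows of proteasome pseudogenes, 1 other reached 1 FPKM (PSME2P2, 1.12 FPKM).

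PSMD1, the other large scaffold of the base, was at 79.0, 80.9 and 97.4 FPKM in control cells and at 86.3, 82.2 and 91.0 FPKM in Ras-induced cells. The highest value was in a control library, and the log2 fold change of 0.02 (SE 0.10, limma adjusted p = 0.923) was below 0 under quantile normalization (-0.05) and upper-quartile scaling (-0.09). PSMD4, a receptor for ubiquitin chains, was at 115 to 124 FPKM and then at 125 to 147 FPKM (log2 fold change 0.18, SE 0.08, limma adjusted p = 0.188).

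**Figure D3:**
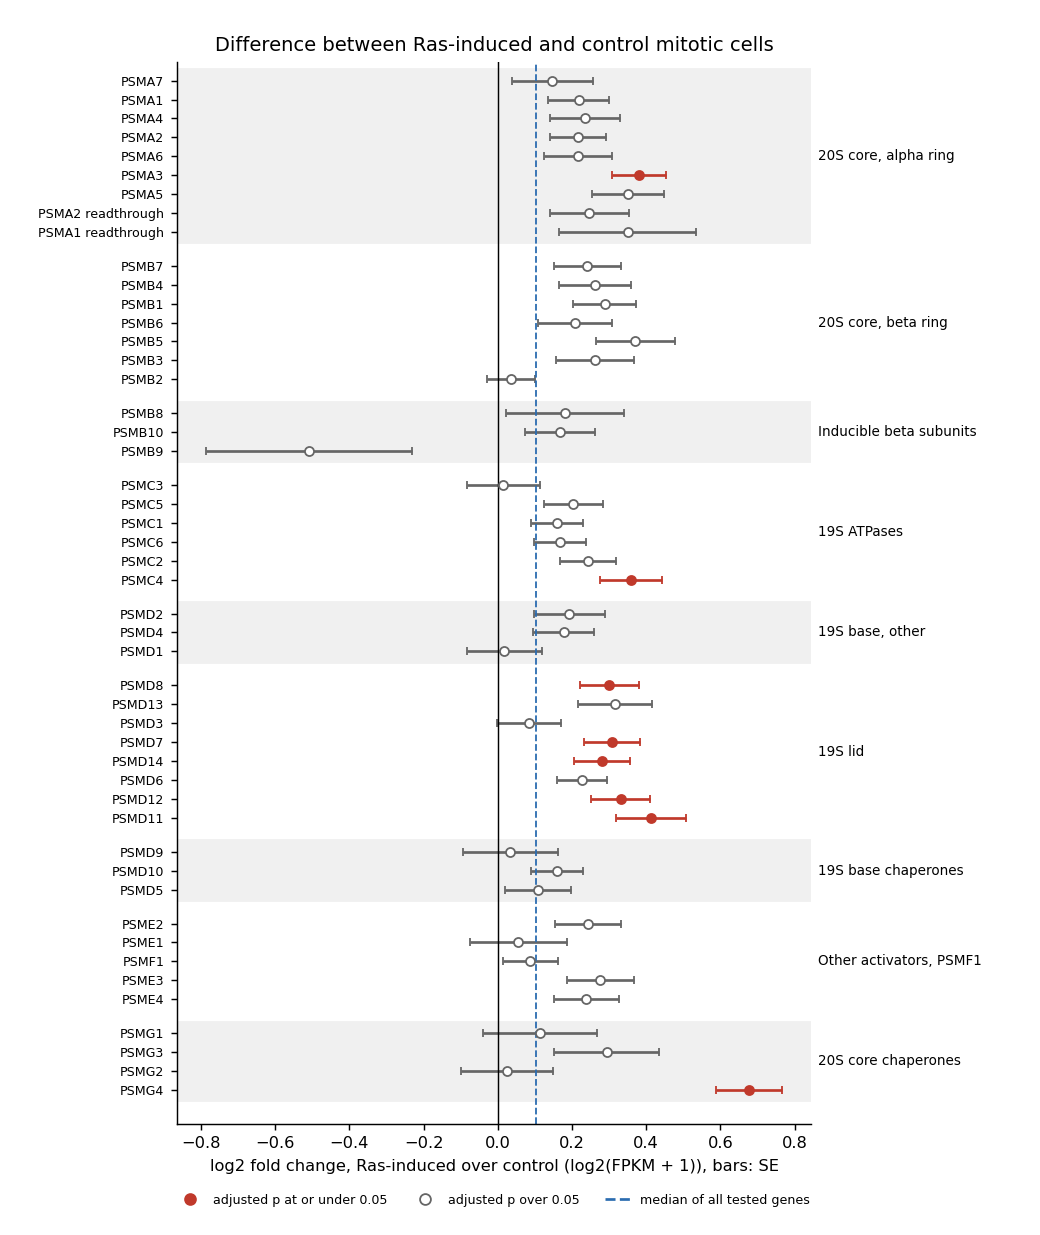
Log2 fold change of each proteasome row (Ras-induced over control, on log2(FPKM + 1)) with its SE from limma, grouped by subcomplex, with filled points for the 8 rows at an adjusted p of at most 0.05 and a dashed line at the median of all tested genes (0.10). PSMG4 lies farthest to the right at 0.68, 5 of the 8 lid subunits are filled, and PSMB9 is the single point left of 0.

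The other activators of the core and its inhibitor gave no calls. PSME1 and PSME2 form the interferon-inducible PA28 cap, PSME3 forms the nuclear PA28 cap, PSME4 is PA200, and PSMF1 inhibits the core. Of the 5 genes, 0 passed (beside 11.0% of all tested genes called higher) and 4 were separated upwards (80.0%, beside 27.1%), with a median log2 fold change of 0.24. PSME3 was at 63.7, 67.8 and 59.0 FPKM in control cells and at 79.6, 70.8 and 81.0 FPKM in Ras-induced cells (log2 fold change 0.28, SE 0.09, limma adjusted p = 0.0809). PSME2, the most abundant of the 5, was at 122, 106 and 117 FPKM and then at 132, 147 and 129 FPKM (log2 fold change 0.24, SE 0.09, limma adjusted p = 0.108). PSME4, the least abundant of the 5, was at 39.6, 38.1 and 36.5 FPKM and then at 40.9, 48.3 and 46.4 FPKM (log2 fold change 0.24, SE 0.09, limma adjusted p = 0.114). PSME1, the partner of PSME2, overlapped, at 86.2, 72.3 and 102 FPKM and then at 89.6, 84.6 and 94.2 FPKM.

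The assembly chaperones held the gene with the largest difference. PSMG4, which pairs with PSMG3 in the chaperone complex that guides alpha ring assembly, was at 6.12, 6.98 and 6.36 FPKM in control cells and at 11.0, 11.0 and 10.9 FPKM in Ras-induced cells. The Ras-induced libraries were within 0.1 FPKM of each other and well above every control library. Its mean rose 1.69-fold (log2 fold change 0.68, SE 0.09, limma adjusted p = 0.00651), and it passed in all 13 alternative settings, with adjusted p from 0.005 to 0.0409. PSMG4 shares 174 exon bases (1.7% of its own) with TUBB2B (29.3 FPKM) on the other strand in the annotation. Reads in this stretch cannot be told apart without strand. Its partner PSMG3 overlapped, at 26.2, 30.5 and 23.4 FPKM and then at 29.9, 38.8 and 30.2 FPKM (log2 fold change 0.29, SE 0.14, limma adjusted p = 0.199). PSMG1 and PSMG2 form the other chaperone pair of the alpha ring. PSMG1, the most abundant core chaperone, was at 36.2, 39.7 and 28.1 FPKM and then at 37.4, 42.3 and 32.6 FPKM (log2 fold change 0.11, SE 0.15, limma adjusted p = 0.64), and PSMG2 had a log2 fold change of 0.03 with overlapping libraries and a sign that turned with either scaling alternative. Of the base chaperones PSMD5, PSMD9 and PSMD10, 0 of 3 passed (beside 11.0% of all tested genes called higher) and 1 was separated upwards (33.3%, near the 27.1% of all tested genes). This was PSMD10 (49.5 to 52.9 FPKM and then 55.0 to 58.4 FPKM). PSMD9, the most abundant of these, was at 104, 97.5 and 79.4 FPKM and then at 90.3, 108 and 89.3 FPKM (log2 fold change 0.03, SE 0.13, limma adjusted p = 0.878), with a sign that turned with either scaling alternative. PSMD5, the least abundant, was at 20.2, 23.1 and 20.7 FPKM and then at 21.8, 23.0 and 24.3 FPKM (log2 fold change 0.11, SE 0.09, limma adjusted p = 0.429).

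Proteasome parts and partners without a PSM symbol were examined beside these genes. Of 14 such genes, 1 rose (ADRM1, beside 11.0% of all tested genes), 0 fell (beside 5.67%) and 9 were separated upwards (beside 27.1%), with a median log2 fold change of 0.23. ADRM1, the ubiquitin receptor of the base also called RPN13, was at 135, 133 and 132 FPKM in control cells and at 156, 157 and 158 FPKM in Ras-induced cells (log2 fold change 0.23, SE 0.06, limma adjusted p = 0.049). It passed in 1 of 13 alternative settings (adjusted p from 0.0492 to 0.244). POMP, the maturation chaperone of the core, had a log2 fold change of 0.34 (SE 0.13, limma adjusted p = 0.127), and SHFM1, the small lid subunit also called SEM1, had 0.27 (adjusted p = 0.141). USP14, a deubiquitinase that docks on the base, and KIAA0368, also called ECM29, were at -0.08 and -0.17 and did not pass.

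Among 9 genes that control proteasome transcription, 2 rose, beside 11.0% of all tested genes. MAFF, a small MAF partner of the NFE2 factors, was at 29.3, 23.0 and 24.7 FPKM in control cells and at 46.6, 53.0 and 47.6 FPKM in Ras-induced cells (log2 fold change 0.91, SE 0.11, limma adjusted p = 0.00481), and passed in all 13 alternative settings. KEAP1, which targets NFE2L2 for degradation, had a log2 fold change of 0.31 (limma adjusted p = 0.0347) and passed in 3 of 13. NFE2L1 itself overlapped between the groups, at 97.8, 84.0 and 80.8 FPKM and then at 96.0, 78.4 and 77.7 FPKM (log2 fold change -0.06, SE 0.12, limma adjusted p = 0.753). NFE2L2 also overlapped, at 71.7, 60.2 and 50.0 FPKM and then at 76.9, 83.0 and 62.0 FPKM (log2 fold change 0.29, SE 0.16, limma adjusted p = 0.263). Of the 9 genes, 8 had a log2 fold change above 0, beside 62.7% of all tested genes. Of 6 genes for ubiquitin and its activating enzymes, 0 passed (beside 11.0% of all tested genes called higher and 5.67% called lower) and 0 were separated (beside 27.1% upwards and 12.8% downwards), with a median log2 fold change of 0.15.

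Class I antigen processing and interferon response genes, which share regulation with the immunoproteasome, lay lower. Of 15 such genes, 0 rose (beside 11.0% of all tested genes), 3 fell (beside 5.67%) and 7 were separated downwards (beside 12.8%), with a median log2 fold change of -0.19. HLA-B, a class I heavy chain, was at 171, 156 and 229 FPKM in control cells and at 117, 108 and 115 FPKM in Ras-induced cells (log2 fold change -0.68, SE 0.15, limma adjusted p = 0.0254, passing in 8 of 13 alternative settings). ERAP1, which trims peptides for class I, was at -0.57 (adjusted p = 0.0379, 5 of 13) and B2M, the class I light chain, at -0.32 (adjusted p = 0.0488, 3 of 13). TAP1, the peptide transporter next to PSMB9 in the MHC, was separated downwards at 20.9 to 25.5 FPKM and then 17.6 to 20.5 FPKM, but did not pass (log2 fold change -0.24, limma adjusted p = 0.173). STAT2 was separated upwards (0.41, adjusted p = 0.113) and IRF1 overlapped (0.54, adjusted p = 0.19).

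Several features of the libraries moved with the groups. HRAS, the gene whose mutant form the cells carry as a fusion, was at 1174, 1176 and 1140 FPKM in control cells and at 1439, 1847 and 1473 FPKM in Ras-induced cells (log2 fold change 0.44, limma adjusted p = 0.0431), and passed in 3 of 13 alternative settings (adjusted p from 0.0193 to 0.166). The fusion counts here only as far as its reads map to HRAS, and its activation by the drug is not measured by an RNA level. All 5 mitosis markers were separated downwards (beside 12.8% of all tested genes) and 2 fell (PLK1 and CCNB2, beside 5.67%), with a summed level of 1592 to 1612 FPKM in control and 1299 to 1455 FPKM in Ras-induced cells. By the study's own microscopic scoring, the large majority of the collected cells were mitotic in both groups. Of 6 fibroblast markers, 4 were separated downwards (beside 12.8% of all tested genes) and 2 fell (COL1A2 and THY1, beside 5.67%). COL1A1 (log2 fold change -1.43, limma adjusted p = 0.0501) and COL3A1 (-1.25, adjusted p = 0.0553) were separated but did not pass. The summed level of the 6 was 4642 to 5243 FPKM in control and 3010 to 4239 FPKM in Ras-induced cells, and VIM overlapped. Immune markers other than CD68 (PTPRC, CD14, AIF1 and CD3E) did not exceed 0.194 FPKM in any library, CD68 was at 25.2 to 35.6 FPKM with overlapping groups, and the summed endothelial markers did not exceed 0.0988 FPKM. Of the epithelial markers, EPCAM and CDH1 had means under 1 FPKM, KRT19 did not exceed 3.05 FPKM and KRT18, also found in cultured fibroblasts, was separated upwards, at 45.1 to 51.8 FPKM in control and 56.7 to 58.7 FPKM in Ras-induced cells (log2 fold change 0.26, limma adjusted p = 0.0638). The part of these shifts in the proteasome differences was not tested, and in RNA from a pool of cells a smaller share of cells of a type and less RNA per cell cannot be told apart.

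**Figure D4:**
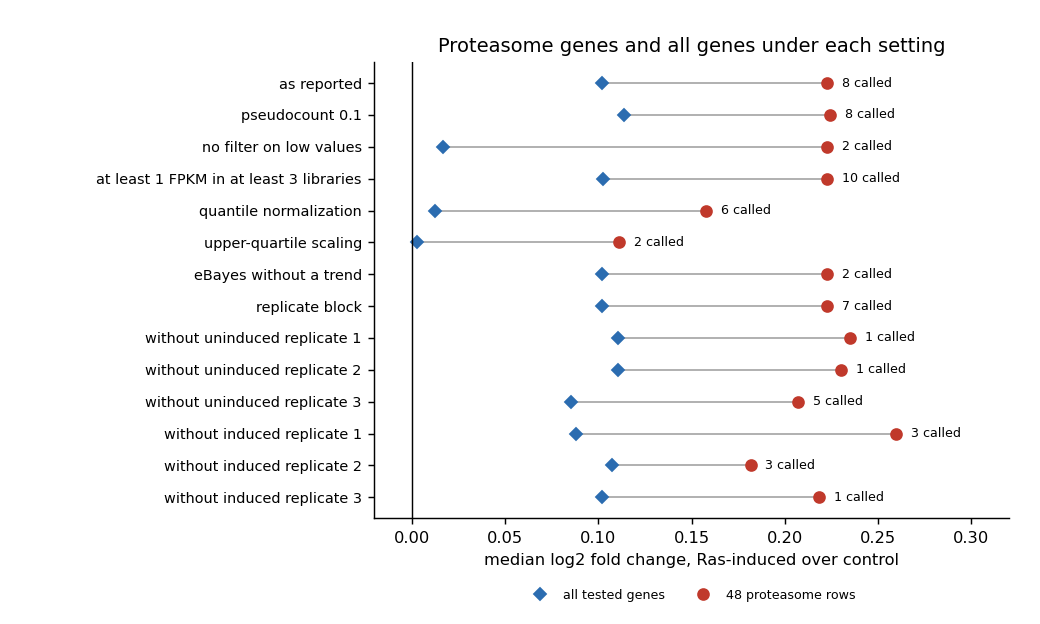
Median log2 fold change (Ras-induced over control) of the 48 proteasome rows (circles) and of all tested genes (diamonds) under the reported setting and 13 alternatives, with the number of proteasome rows called higher. The proteasome median lies to the right of the all-gene median in every setting shown, with 1 to 10 rows called.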

How the data were processed

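RNA-seq libraries were made with an oligo-dT, unstranded kit from mitotic ERRAS cells, 3 uninduced and 3 induced. The authors aligned trimmed reads (Trim Galore 0.3.0) to hg19 with TopHat2 and Ensembl junctions, and the deposited FPKM values were computed by the authors with Cufflinks. A deposited Cuffdiff comparison (group FPKM, fold changes, statistics, p and q values) was not used. In the FPKM table, 1 additional header line, 120 rows with more than 6 values (none a proteasome row) and 18 unnamed further columns were left out. Columns carry the group and a number but no sample name, so they served as replicates of their group. The experiment was described as repeated independently, but no label ties numbers across groups, and p-values measure the spread between these libraries.

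The 13993 rows whose mean reached 1 FPKM were tested as log2(FPKM + 1), which understates the change of low genes, with limma 3.58.1 in R 4.3.3 (empirical Bayes with trend, all 6 libraries, Benjamini-Hochberg adjustment over all rows, threshold 0.05). Ratios of subunit pairs were compared by two-sided exact permutation. The fit was tested on simulated data. Alignment statistics and counts of the libraries were not used here. The steps of low FPKM values gave relative depths from 0.852 to 1.17, with control library 1 as 1, and no count test was made. Any member could be named, and some were chosen after their values were seen. Full values are given for members that passed, the catalytic subunits with their inducible counterparts and the highest and lowest gene of each subcomplex, plus companion genes that passed or whose role was needed. The proteasome genes, lists and tests were chosen with earlier results of these data known. Exon overlaps came from GENCODE v44lift37 (GRCh37), which matched 47 of the 48 rows. Alternatives were another pseudocount, other filters, quantile and upper-quartile scaling, no trend, a replicate block and leaving out each library.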

Additional observations from a re-analysis of the deposited data

How the results depend on the processing

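Leaving out 1 library at a time gave 519 to 1162 genes called higher and 335 to 710 called lower among all tested genes, 1 to 5 proteasome rows called higher, and a proteasome median of 0.18 to 0.26. With no filter on low values 960 genes and 2 proteasome rows (PSMA3 and PSMG4) were called higher, and 29362 rows were tested. With upper-quartile scaling 916 genes and 2 proteasome rows were called higher and the median was 0.11. Without the trend 2 proteasome rows were called, and with quantile normalization the median was 0.16. A filter of at least 1 FPKM in at least 3 libraries gave 10 rows, and a pseudocount of 0.1 gave 8, of which 7 were shared with the 8 reported. Apart from the leave-one-out results these are 7 alternatives, under which 287 of 336 single-row results kept their direction and side of the threshold, 27 lost and 8 gained the call and 14 changed sign. With 1 library left out, 241 of 288 were kept, 35 lost and 1 gained the call and 11 changed sign. The cause of these changes was not tested.

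Under quantile normalization the log2 fold change turned to -0.011 for PSME1, -0.018 for PSMD9, -0.070 for PSMG2, -0.060 for PSMB2, -0.060 for PSMC3 and -0.050 for PSMD1. Under upper-quartile scaling it was -0.056 for PSME1, -0.023 for PSMF1, -0.077 for PSMD9, -0.080 for PSMG2, -0.075 for PSMB2, -0.097 for PSMC3, -0.093 for PSMD1 and -0.028 for PSMD3. None of these rows had passed. With 1 library left out, the range crossed 0 for PSMD1 (-0.038 to 0.11), NFE2L1 (-0.16 to 0.021), PSME1 (-0.068 to 0.18), PSMD9 (-0.079 to 0.11), PSMG1 (-0.026 to 0.22), PSMG2 (-0.073 to 0.11) and PSMC3 (-0.060 to 0.097).

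Whether the column numbers pair the libraries could not be settled from the values. Deviations of same-numbered libraries correlated at r = -0.00, 0.04 and 0.05 across genes, none over 0.1. Those of libraries with unlike numbers correlated at -0.07 to 0.03. Correlations this low do not exclude pairing. With the number as a replicate block, 7 proteasome rows were called, 5 of them shared with the 8 reported, and 1466 genes were called higher and 844 lower. Read counts were not used here, so the counting error of low rows such as PSMB9 and PSMG4 could not be given.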
